A study of Sus scrofa with 26 samples.

Results

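The crossbred pigs (F1, from Large White and Creole) and the Large White (LW) pigs kept at thermoneutrality (TN) were compared in subcutaneous adipose tissue (SCAT). The members are the 8 arrays whose titles give the tissue, 1 of these breeds and 24 °C, that is 4 F1 and 4 LW arrays of the 26 arrays in the series, with 1 pig per array. All were castrated males raised at 1 experimental unit, moved to the climatic room at the same age and slaughtered before the rise in temperature, and F1 differed from LW in having a Creole parent. The other arrays were 3 Creole pigs at TN and 5 pigs each of F1, LW and Creole under heat stress (HS), which the sample titles give as 30 °C and the growth protocol as 32 °C for 5 days. Pigs of the experiment were littermates in blocks, penned by breed, and neither the litter nor the pen nor the day of slaughter was known per array, so breed cannot be told apart from them.

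Back fat stores triglycerides in large adipocytes, which make fatty acids from glucose, take them up from blood lipoproteins, and release them again by lipolysis. The tissue also holds vessels, fibroblasts that lay down collagen, macrophages and nerves. Creole pigs are a fat, slow-growing, heat-tolerant breed of the Caribbean, and Large White pigs are a lean, fast-growing breed. The question here was which transcripts differ between a Large White pig and its cross with Creole when neither is under heat.

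Spots well above background made up 72.5% ± 3.50 (SD, n = 4) of an F1 array and 71.7% ± 1.56 (SD, n = 4) of a LW array, which is within the array-to-array spread (exact two-sided permutation test, p = 0.657, the smallest possible being 0.0286). The ratio of the median spot intensity to that of the negative controls was 4.27 ± 0.278 (SD, n = 4) in F1 and 3.96 ± 0.162 in LW (same exact test, p = 0.114). Across probes, pairs of arrays from the same group correlated between 0.988 and 0.992 and pairs from different groups between 0.984 and 0.992. The F1 arrays lay on 4 slides and the LW arrays on 3, and 2 slides held an array of both. All 10 adipocyte markers were measured, among them ADIPOQ, which encodes adiponectin, at a mean log2 intensity of 17.42, and PLIN1, the coat protein of the lipid droplet, at 15.80. In bulk tissue, fewer cells of a type and less RNA per cell cannot be told apart.

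The probes on which the results turn most are 60-base oligonucleotides, and 6 are shown as examples from transcripts whose values are given at length, 5 of them called. The IGF2 probe shown, at −0.92, is another of that gene's 9 probes than the one whose values by array are given. They are given 5′ to 3′ as in the scanner files, and the capitals in KRT8 mark a stop triplet, after which the printed stretch ends at base 43.
SCP2: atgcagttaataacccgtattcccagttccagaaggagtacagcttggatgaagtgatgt
GNAS: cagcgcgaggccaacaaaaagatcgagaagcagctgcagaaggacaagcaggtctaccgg
PI4KA: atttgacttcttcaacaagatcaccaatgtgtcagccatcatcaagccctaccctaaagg
PARVB: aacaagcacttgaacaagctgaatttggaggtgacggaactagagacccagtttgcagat
KRT8: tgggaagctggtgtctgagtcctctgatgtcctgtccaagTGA
IGF2: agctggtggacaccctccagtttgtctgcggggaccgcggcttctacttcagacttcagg

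Few transcripts passed the test. Of 44703 probes, 98 (0.219%) had an adjusted p under 0.05 in limma, 61 of them higher in F1 (0.136%) and 37 lower (0.0828%). At an unadjusted p under 0.05 there were 6375 probes, 3151 higher in F1 (7.05%) and 3224 lower (7.21%). The 98 probes differed by a median of 0.61 on the log2 scale, from −2.23 to 2.46, and 15 differed by more than 1. The 4 F1 arrays did not overlap with the 4 LW arrays for 94 of the 98, against 8.94% of all tested probes. The same arrays chose the 98, so their separation follows from that choice and is no further result. Among the tested probes 1608 sequences were printed under more than 1 probe name, and the differences of such probes spread by a median of 0.05. In 5 of these sets a called probe had a partner of the same sequence that was not called, and all 5 partners had the same sign. A gene symbol was found for 46 of the probes, which stand for 43 genes, 31 higher and 12 lower in F1. The count was not stable. Without LW replicate 1 there were 2 calls, both among the 98, without F1 replicate 1 there were 3 (2 among the 98), and without LW replicate 4 there were 6 (4 among the 98). Without F1 replicate 3, F1 replicate 2 and LW replicate 3 there were 13, 15 and 22 calls, with 11, 13 and 18 of them among the 98. Without LW replicate 2 there were 330, with 90 among the 98. With slide as a block in the model 1 probe passed, with all 98 in the same direction as without it. Averaged within the 2 slides that held both breeds, with no test, the differences were 0.90 for SCP2, 1.22 for HSD17B4, −1.26 for KRT8, −0.35 for THBD and −0.36 for DNAJC7, against 1.63, 1.07, −1.42, −0.71 and −0.56 over all 8 arrays. PPP2R3C was at 0.31 within these slides and at 0.63 over all 8 arrays. Each of the 2 slides held 1 F1 and 1 LW array at TN, so each average is of 2 pairs of pigs. Slide by slide, the differences were 1.58 and 0.23 for SCP2, 1.59 and 0.86 for HSD17B4, and −1.16 and −1.36 for KRT8. They were −0.17 and −0.54 for THBD and −0.41 and −0.31 for DNAJC7.

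The called genes higher in F1 are described first, ordered by what each is known to do, with no test of any group. SCP2 encodes sterol carrier protein 2 and a peroxisomal thiolase. Its probe read 8.98, 8.67, 8.92 and 8.44 in F1 and 7.34, 8.22, 6.45 and 6.48 in LW. Each F1 array was above every LW array, by a mean of 1.63 ± 0.30 (SE, adjusted p = 0.033, limma) or 3.10-fold. The other 3 SCP2 probes were also higher in F1, but by 0.29 to 0.48. HSD17B4, the multifunctional enzyme of peroxisomal fatty acid oxidation, read 13.64, 13.60, 14.15 and 13.57 in F1 and 12.56, 12.71, 12.75 and 12.66 in LW. The groups did not overlap and differed by 1.07 ± 0.23 (SE, adjusted p = 0.049, limma), and the remaining 2 probes were higher by 0.14 and 0.27.

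ACAD8, the mitochondrial dehydrogenase of valine breakdown, stood at 11.02, 10.98, 10.90 and 10.86 in F1 against 10.14, 10.54, 10.01 and 10.02 in LW. The difference was 0.76 ± 0.14 (SE, adjusted p = 0.031, limma). The second ACAD8 probe differed by −0.27, so the probes of this gene disagreed in direction. GAA, the lysosomal enzyme that degrades glycogen, was 1.67-fold higher in F1 (0.74 ± 0.14 SE, adjusted p = 0.034, limma), with no second probe tested. SIRT5, a mitochondrial deacylase, rose by 0.52 ± 0.11 (SE, adjusted p = 0.039, limma), and its other 2 probes had the same sign.

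GNAS encodes the stimulatory G protein subunit that couples adrenergic receptors to cyclic AMP. Its leading probe read 10.60, 10.54, 10.50 and 10.46 in F1 and 9.95, 10.20, 9.88 and 9.90 in LW. This was a difference of 0.54 ± 0.11 (SE, adjusted p = 0.043, limma). Of the 17 GNAS probes tested 2 passed and 13 were higher in F1, over a range from −0.21 to 0.54. PI4KA, a kinase that makes phosphatidylinositol 4-phosphate, read 9.52, 9.31, 9.54 and 9.24 in F1 and 8.80, 8.95, 8.70 and 8.67 in LW. All 8 PI4KA probes were higher in F1, by 0.06 to 0.62, and the 1 that passed was the largest (0.62 ± 0.10 SE, adjusted p = 0.024, limma).

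MYD88, the adaptor of Toll-like receptors, was higher by 0.65 ± 0.14 (SE, adjusted p = 0.046, limma), with both other probes in the same direction. TBC1D20, a GTPase activator of Rab proteins, read 11.07, 11.13, 11.47 and 11.11 in F1 and 10.43, 10.51, 9.36 and 9.75 in LW, a 2.27-fold difference. Of its other 2 probes 1 was higher and 1 lower. BNIP3L, a receptor for the removal of mitochondria, was 1.70-fold higher (0.76 ± 0.16 SE, adjusted p = 0.046, limma), while 2 of its 5 other probes shared the direction. WDR3, a factor of ribosome assembly, was called higher on a probe well above background on 2 of 4 LW arrays, so its size is uncertain and ran from 0.31 to 2.72 across the settings tried. Only 2 of the 5 further WDR3 probes shared the direction. RILPL1, EML2, TMEM43 and PPP2R3C rose by 0.54 to 0.63. The remaining 16 genes past the threshold were all higher in F1, by 0.37 to 0.52.

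**Figure D1:**
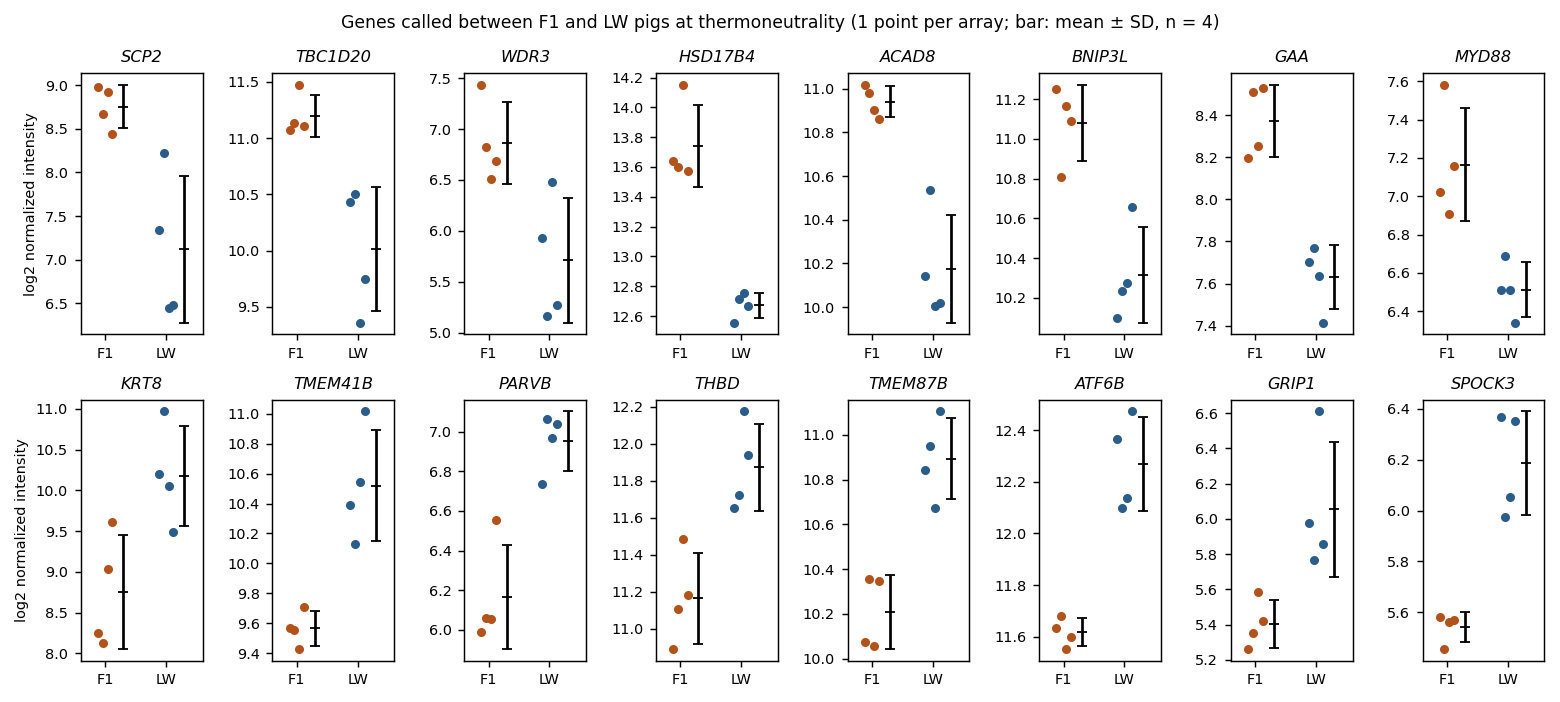
Log2 normalized intensity on each TN array for the 8 largest rises (upper row) and 8 largest falls (lower row) among called genes with a symbol, 1 point per array and mean ± SD beside it (n = 4 per breed). The F1 points lie above the LW points in the upper row and below them in the lower row, except in KRT8, where F1 replicate 4 (9.61) is above LW replicate 4 (9.49). The vertical axes differ between panels and do not start at 0.

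Genes lower in F1 were fewer and led by a keratin. KRT8, the type II keratin of simple epithelia, read 8.25, 8.12, 9.04 and 9.61 in F1 and 10.19, 10.97, 10.05 and 9.49 in LW. The groups overlapped by 1 array each, and the mean was lower by −1.42 ± 0.30 (SE, adjusted p = 0.049, limma). A second probe with the identical sequence gave −1.34 and an adjusted p of 0.056, so the same sequence fell on both sides of the threshold. Both other KRT8 probes were lower as well, by −0.97 and −0.76. The list of keratinocyte markers is not of keratinocytes alone, since KRT8 is itself 1 of its 8 measured genes. Of the other 7 in the same arrays 6 were below 0, with a median of −0.85. Their mean deviation from the gene means ranged from −0.96 to −0.09 in F1 and from −0.83 to 1.67 in LW, the highest being LW replicate 1, and without that array 4 of the 7 were below 0, with a median of −0.08. KRT18, 1 of these 7 and the usual partner of KRT8, differed by −0.85 and did not pass. The part of epithelial cells in the KRT8 result was not tested.

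THBD, the thrombin receptor thrombomodulin of endothelium, read 10.89, 11.10, 11.48 and 11.18 in F1 and 11.65, 11.72, 12.18 and 11.94 in LW. It was lower in F1 by −0.71 ± 0.15 (SE, adjusted p = 0.046, limma), with 2 of 3 other probes in the same direction. All 10 endothelial markers were above 0, with a median of 0.11 (0.18 without LW replicate 2), and none passed. The part of endothelial cells in the THBD result was not tested. PARVB, a linker between integrins and actin, read 5.99, 6.06, 6.05 and 6.55 in F1 and 6.74, 7.06, 6.97 and 7.04 in LW, and was 1.72-fold lower. A probe with no symbol and the identical sequence gave −0.59 and did not pass (adjusted p = 0.088, limma). ALCAM, an adhesion molecule of the immunoglobulin family, was lower by −0.43 ± 0.09 (SE, adjusted p = 0.046, limma). ACE, the angiotensin-converting enzyme, was lower by −0.54 on 1 probe, while its other 3 probes were all higher in F1.

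DNAJC7, a co-chaperone of HSP70 and HSP90, was called on both of its probes, which differ in sequence. The first read 11.37, 11.55, 11.63 and 11.73 in F1 and 12.04, 12.04, 12.13 and 12.32 in LW, and the second 11.52, 11.54, 11.68 and 11.64 against 12.16, 12.10, 11.99 and 12.16. The differences were −0.56 ± 0.11 and −0.51 ± 0.10 (SE, both adjusted p = 0.034, limma). ATF6B, a membrane-bound transcription factor of the endoplasmic reticulum stress response, read 11.55 to 11.68 in F1 and 12.10 to 12.47 in LW. It was 1.57-fold lower, but its second probe had the opposite sign. PLCB1, a phospholipase C, was lower by −0.60, and TMEM41B, an endoplasmic reticulum protein of lipid transport and autophagy, by −0.95. TMEM87B differed by −0.69. SPOCK3 and GRIP1 were well above background on only 1 of 4 F1 arrays and on all LW arrays, so their sizes are uncertain and ran across the settings tried from −1.92 to −0.47 for SPOCK3 and from −1.86 to −0.37 for GRIP1.

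Probes with no gene symbol made up 52 of the 98 and 10 of the 15 largest differences. Those named here were chosen after their values were seen. A_72_P123631 had the smallest adjusted p of all (2.49e-05, limma). It read 6.43, 6.65, 6.75 and 6.73 in F1 and 7.62, 7.75, 7.91 and 7.62 in LW, a difference of −1.08 ± 0.11 (SE). The 4 LW arrays at TN also stood above each of the other 18 arrays, among which the highest was a LW array under HS at 6.85. It was the 1 probe that kept an adjusted p under 0.05 with slide as a block (−0.97 ± 0.11 SE, adjusted p = 0.00083), and it passed in each of the 26 fits that left out 1 array. In the additive model over both temperatures it missed the threshold (−0.49, adjusted p = 0.054). The array describes it as a partial match to a G patch domain protein of cattle, and none of the 3 forward reading frames of its 60 bases is free of a stop triplet. O8870, which the array design names KAL1, a matrix protein of neuronal migration, was lower in F1 by −1.01 and did not overlap. A_72_P288469, named CLEC18A by the array design, differed by −1.61, with F1 arrays from 7.93 to 9.10 and LW arrays from 9.20 to 10.67. A_72_P443974 and A_72_P414093 had the 2 largest rises, of 2.46 and 2.42. Averaged within the 2 slides that held both breeds, these were 1.36 and 1.43. For the first, F1 read 10.33, 10.87, 8.91 and 7.61 against 6.79 to 7.21 in LW, so that the 4 F1 pigs spread more widely among themselves than the LW pigs.

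The same breeds were compared under HS in other pigs, 5 against 5, drawn by the design from the same litters as the TN pigs. Only 5 probes passed there (0.0112%), all lower in F1, and 6418 had an unadjusted p under 0.05. Of the 98 TN probes, 93 had the same sign under HS, or 94.9% against 61.1% of all tested probes, and 43 had that sign with an unadjusted p under 0.05, against 11.2%. For 14 of the 98 the F1 and LW arrays under HS did not overlap in the TN direction, against 2.61% of all probes. The HS difference was smaller in size for 96 of the 98, with a median of 0.19 in the TN direction. The TN values chose these probes, so the larger size at TN is no result. The TN and HS p-values also use the same spread between pigs, pooled over all groups and so including the HS arrays. Probes called at TN were partly chosen for a small pooled spread, which by itself favours a small p and no overlap under HS. The counts of 43 and 14 of the 98 are therefore no independent replication. The part of the shared spread in them was not tested.

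HSD17B4 was the gene of equal size at both temperatures, at 1.07 (unadjusted p = 2.64e-05 under HS). SCP2 was higher by 1.04 under HS and TBC1D20 by 0.75. DNAJC7 was lower by −0.63 on its second probe, the 1 TN probe that also passed under HS (adjusted p = 0.0080, limma), where 1 Creole array had no value. KRT8 was lower by −0.65. MYD88, PPP2R3C and ALCAM stood at −0.05, 0.09 and −0.04 under HS.

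**Figure D2:**
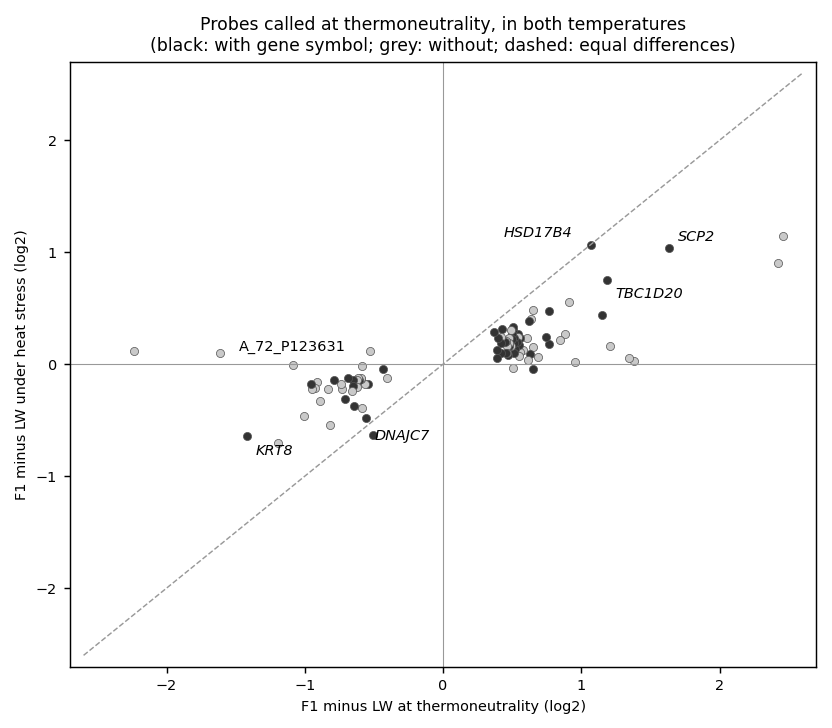
F1 minus LW (log2) at TN on the horizontal axis and under HS on the vertical axis for the 98 probes called at TN, black where a gene symbol is known. HSD17B4 and DNAJC7 lie near the dashed line of equal differences, most other points lie between that line and 0, and A_72_P123631 lies on 0 under HS (−0.01).

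The difference between the breed contrasts was itself tested, and 1 of 44703 probes passed (0.00224%), with 2966 at an unadjusted p under 0.05. It was A_72_P123631, at −1.08 at TN and −0.01 under HS (difference −1.08, adjusted p = 0.0056, limma). With slide as a block no probe passed this test. The 3 named genes of smallest p for it did not pass. RDH16, a retinol dehydrogenase, was at −1.11 at TN and 0.63 under HS (adjusted p = 0.75, limma). The second RDH16 probe was at −3.22 at TN, where it did not pass, and at 0.42 under HS. HSD17B7, an enzyme of cholesterol and estradiol synthesis, was at −0.74 and 0.27. PIGL, of glycosylphosphatidylinositol anchor synthesis, was at −0.62 and 0.39.

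The growth hormone and insulin-like growth factor genes had no member past the threshold, 12 of 18 being below 0 with a median of −0.13, beside 0.01 over all 10124 named genes. Of those named genes 54% were above 0. IGF2, the fetal growth factor expressed from the paternal allele in most tissues, had the smallest p. It read 14.32, 14.33, 14.07 and 14.28 in F1 and 15.50, 15.26, 15.06 and 15.36 in LW. The groups did not overlap, the F1 mean was 2.07-fold below LW, and the adjusted p was 0.091 (−1.05 ± 0.27 SE, limma). All 9 IGF2 probes, of 8 sequences, were lower in F1, by −1.18 to −0.76, with adjusted p from 0.084 to 0.17. Under HS all 9 were lower again, by −0.96 to −0.51, though 1 F1 pig reached 15.65 and overlapped with LW. Creole pigs at TN averaged 14.14. IGFBP6, a binding protein that prefers IGF2, was at −0.68 and IGFBP5 at −0.70, while the receptor IGF2R was at 0.26 and IGF1 at 0.24, none past the threshold. The median of the list was −0.05 without LW replicate 4.

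**Figure D3:**
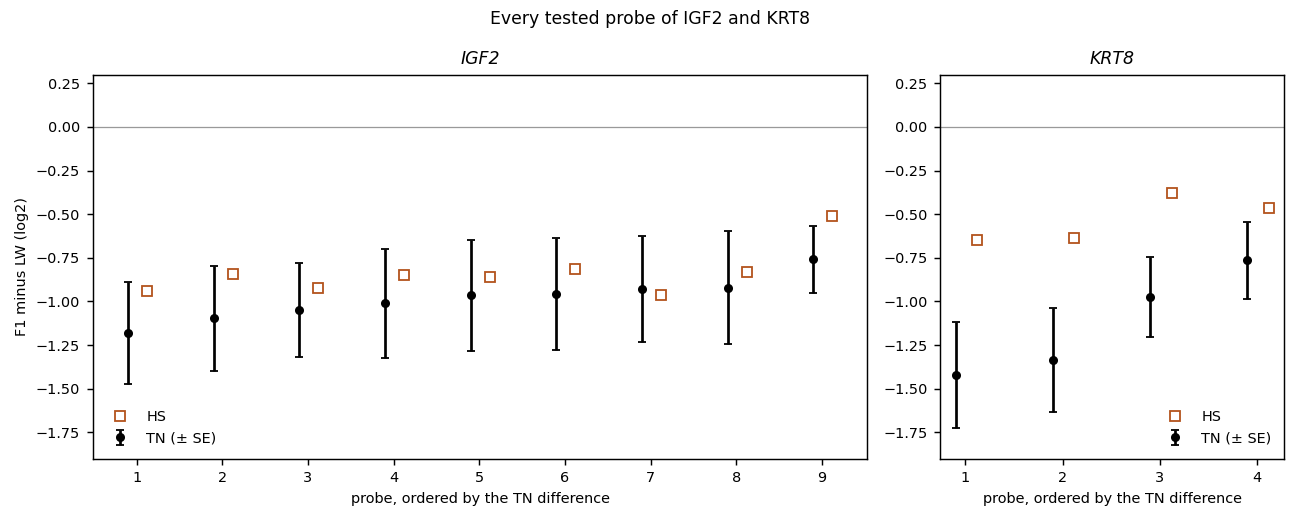
F1 minus LW (log2) for each tested probe of IGF2 (9 probes) and KRT8 (4 probes), with TN as points ± SE and HS as open squares. Every point and square lies below 0, from −1.18 to −0.76 at TN for IGF2 and from −1.42 to −0.76 for KRT8.

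**Figure D4:**
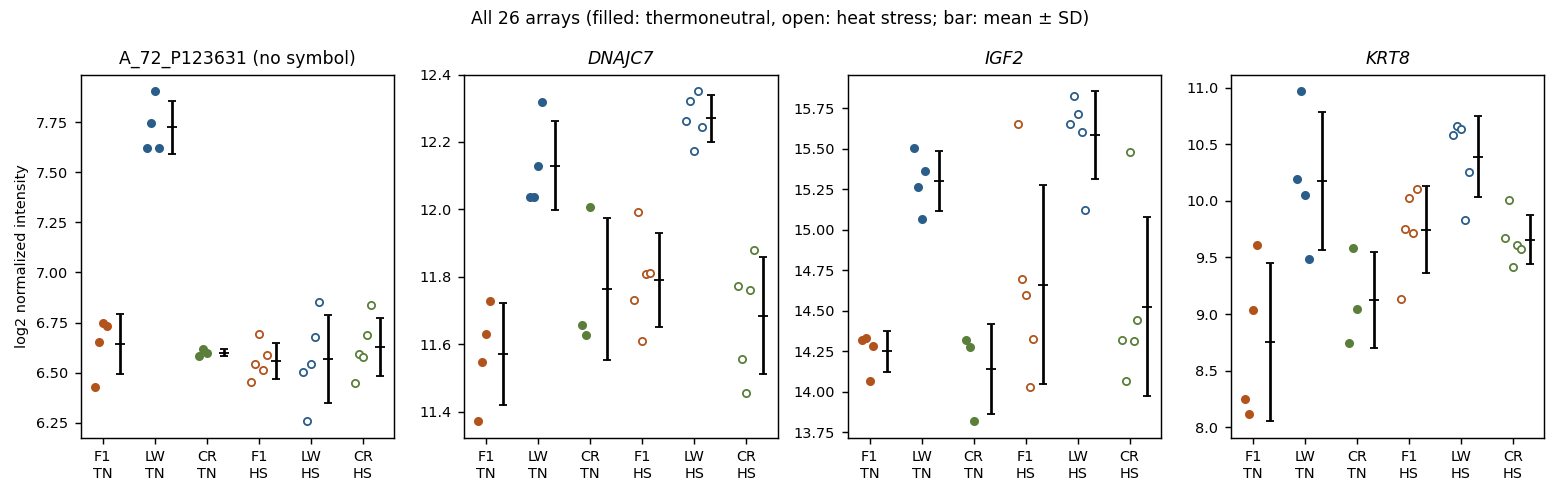
Log2 normalized intensity on all 26 arrays for A_72_P123631, DNAJC7, IGF2 and KRT8 by breed and temperature, filled at TN and open under HS, with mean ± SD (n = 3 to 5). For A_72_P123631 the 4 LW arrays at TN (7.62 to 7.91) stand above all others, whereas for DNAJC7 the LW arrays are high at both temperatures. The vertical axes do not start at 0.

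KIT, the receptor tyrosine kinase of melanocytes and mast cells whose locus sets the white coat of Large White pigs, was 1 of the genes called under HS and is named for that. At TN its first probe read 11.55, 11.66, 11.01 and 11.36 in F1 and 11.74, 11.86, 12.71 and 11.67 in LW. All 5 KIT probes were lower in F1 at TN, by −0.67 to −0.31, and none passed (adjusted p from 0.27 to 0.56, limma). Under HS they were lower by −1.44 to −1.05.

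Creole pigs at TN, on 3 arrays of their own, are set beside these means with no test. HSD17B4 averaged 13.74 in F1, 12.67 in LW and 14.14 in Creole. SCP2 averaged 8.75, 7.12 and 8.28, and ACAD8 10.94, 10.18 and 11.05. KRT8 averaged 8.75 in F1, 10.18 in LW and 9.12 in Creole.

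None of the 31 lists of functions or genes of the study, nor of the 11 lists of cell markers, had a gene past the threshold on the probe with the highest level, against 22 of 10124 named genes (0.217%), of which 869 (8.58%) had F1 and LW arrays that did not overlap. HSD17B4, ACAD8 and KRT8 were called on other probes than that one. Over all named genes 54% were above 0, the share to set beside the counts that follow. In fatty acid synthesis 11 of 17 genes were above 0 (median 0.04), in lipolysis 7 of 14 (0.01), in fatty acid uptake 3 of 12 (−0.06) and among adipokines 9 of 15 (0.02). Triglyceride synthesis and lipid droplet genes had 17 of 24 above 0, with a median of 0.16 and differences from −0.51 to 0.62. The gene of smallest p among them was CIDEA, a lipid droplet protein, at 0.40 (adjusted p = 0.11, limma). Fatty acid oxidation had 18 of 25 above 0 (median 0.09), with CPT2, the inner carnitine palmitoyltransferase, at 0.45. These medians moved with single arrays. That of triglyceride synthesis was 0.07 without F1 replicate 1, that of fatty acid oxidation 0.04 without F1 replicate 4 and that of fatty acid uptake −0.02 without F1 replicate 4. That of fatty acid synthesis ran from −0.02 without F1 replicate 3 to 0.21 without F1 replicate 2, and those of lipolysis and adipokines were 0.10 without LW replicate 3 and −0.04 without LW replicate 4.

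Of the genes that the study names for this tissue none passed. FASN, the fatty acid synthase, differed by less than 0.01 on its probe of highest level, whereas the other 4 probes were all higher in F1, by 0.37 to 0.52. That probe averaged 18.54, near the top of the intensity scale, where quantile normalization leaves few distinct values. F1 replicate 2 and LW replicate 1 both read 18.64, and LW replicates 2 and 3 both read 18.63. Whether this level limited the difference was not tested. Both probes of ELOVL6, a fatty acid elongase, were higher, by 0.12 and 0.13. LPL, which releases fatty acids from lipoproteins, was at −0.34 (−0.19 without F1 replicate 2), with 5 of 6 other probes also below 0, but at 0.20 within the 2 slides that held both breeds. CYBA, a subunit of NADPH oxidase, was at −0.21 (−0.11 without LW replicate 1), and its other 2 probes had opposite signs. Among antioxidant enzymes all 16 PRDX3 probes were above 0, by 0.08 to 0.47. SOD1 was at −0.01, with 3 of 4 other probes above 0, and SOD2 at −0.16, with 5 of 8 other probes below 0. The other SOD2 probes ran from −1.96 to 0.17. All 6 probes of PLA2G7 and all 3 of AHR were above 0, and MAPK6 was at 0.26, with 2 of 3 other probes above 0.

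Respiratory complexes II to V had 18 of 21 genes above 0 (median 0.16) and complex I 24 of 34 (median 0.06), against 54% of all named genes. Heat shock proteins had 31 of 40 above 0 with a median of 0.11. Their mean deviation from the gene means was from −0.04 to 0.15 in F1 and from −0.14 to −0.08 in LW, so the groups did not overlap, as for 2 of the 42 lists, the second being B cell markers (from −0.21 to −0.09 in F1 and from −0.05 to 0.13 in LW). The gene of smallest p on the heat shock list, DNAJA2, was at 0.25 with an adjusted p of 0.28 (limma), and DNAJC7, called lower in F1, is not on that list. Cytosolic ribosomal proteins had 51 of 67 below 0, with a median of −0.05. Matrix proteins and enzymes had 26 of 34 below 0 (median −0.20), with differences from −0.86 to 0.36. The gene of smallest p among them was ELN, the elastin gene, at −0.77 (adjusted p = 0.21, limma). Collagens had 14 of 23 below 0 (median −0.16), with COL1A1 at −0.41 and COL5A2 at 0.44. Interferon response genes had 22 of 28 above 0 (median 0.17), with MX2, an antiviral GTPase, at 0.95 (0.62 without LW replicate 4). The median of complexes II to V was 0.09 without F1 replicate 3, of complex I 0.03 without LW replicate 3 and 0.10 without LW replicate 2, and of ribosomal proteins −0.03 without LW replicate 2. That of collagens was −0.07 without LW replicate 1 and −0.27 without F1 replicate 2, that of matrix proteins −0.31 without F1 replicate 2, and that of interferon response genes 0.09 without F1 replicate 1.

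Among markers of other cells, skeletal muscle genes had the widest shift. They were above 0 for 19 of 20 genes with a median of 1.20, led by the fast myosin MYH4, which read 13.92, 12.33, 11.73 and 12.86 in F1 and 10.93, 12.60, 10.46 and 9.64 in LW. The muscle score, computed in the same way, ranged from −0.79 to 0.84 in F1 and from −1.89 to 0.21 in LW, so the groups overlapped, no gene passed, and the median was −0.41 under HS and 0.29 in the additive model over both temperatures. Macrophage markers had 13 of 14 above 0 (median 0.29), fibroblast markers 11 of 13 below 0 (median −0.16) and nerve markers 9 of 13 below 0 (median −0.19). The macrophage median was 0.18 without F1 replicate 3 and 0.05 in the additive model, the fibroblast median −0.09 without LW replicate 1 and −0.26 without LW replicate 2, and the nerve median −0.06 without LW replicate 1 and −0.02 with slide as a block. Adipocyte markers were 5 above and 5 below 0. The part of these shifts in the called genes was not tested. Fitted with the red blood cell marker score as a covariate, 130 probes passed, 95 of them among the 98.

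**Figure D5:**
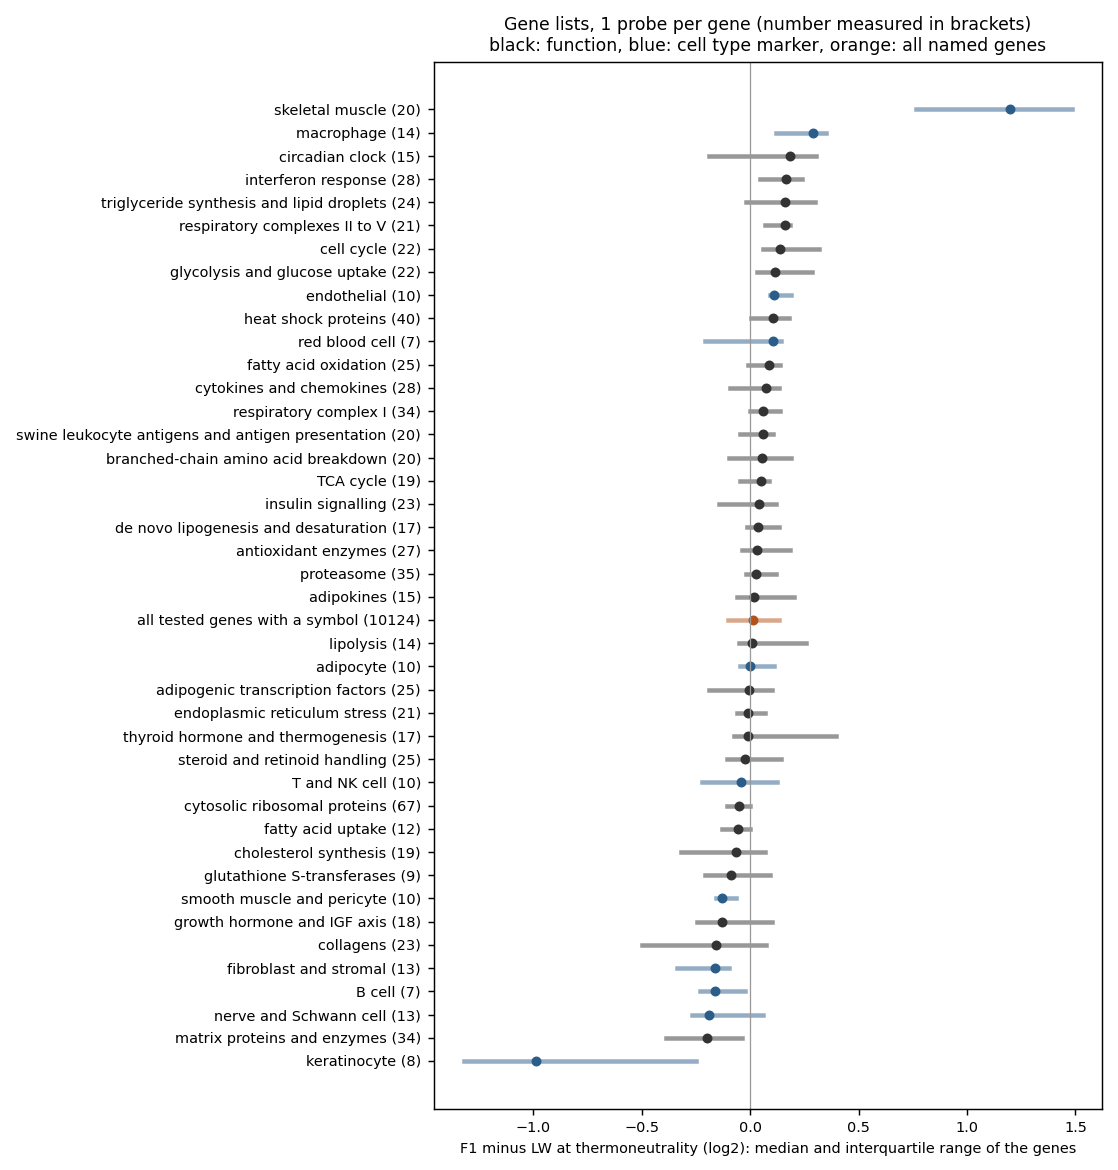
Median (point) and interquartile range (bar) of the F1 minus LW differences at TN (log2) over the genes of each list, 1 probe per gene, with the number of genes in brackets, black for functions, blue for cell markers and orange for all 10124 named genes. Skeletal muscle (1.20) and keratinocyte (−0.99, or −0.28 without LW replicate 1) markers lie farthest from 0, and the function lists lie between −0.20 and 0.18. The 0.18 is the circadian clock list, which was at 0.06 without F1 replicate 4.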

How the data were processed

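RNA of each sample was labelled with Cy3 and hybridised to 1 Agilent porcine array. The scanner files deposited by the authors (Agilent Feature Extraction 10.10.1.1) hold unnormalized spot intensities and a background-corrected intensity, with flags for spots above background. The authors' value table, used as an alternative, has log2 quantile-normalized intensities of 44104 probes with array medians from 8.169 to 8.173, and how those probes were retained is not stated. Probe flags (scores) were used as the authors deposited them.

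In R 4.3.3 with limma 3.58.1, median intensities were quantile-normalized without background correction, log2-transformed and averaged per probe, and non-uniform spots were set to missing. Probes well above background on at least 8 of 26 arrays were kept (44703). A model with 6 group means was fitted to all 26 arrays (lmFit, eBayes with an intensity trend), with Benjamini-Hochberg adjustment over all tested probes and a threshold of 0.05. The study's model adds temperature and breed terms with random effects of pen, slaughter day and parents, which the labels do not give. Symbols came from accessions, symbols or synonyms in the files matched to a list of Sscrofa11.1 genes. No genome was used, so probes have no positions here. The p-values rest on a spread between pigs pooled over the 6 groups, and they treat the pigs as independent. By the design of the study some pigs within a group shared a litter or a pen, so the p-values may be too small as a test of breed. The number of arrays limits the precision.

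The named genes are the 15 largest rises and falls among called probes with a symbol (1 per gene, well above background on every array of 1 breed), the gene of smallest p in each list, the genes that the study names and the 3 of smallest p for the difference between temperatures. The comparison, the lists and these rules were chosen with earlier results of these data known. A list was represented by the probe of highest mean level per gene, its score on an array being the mean deviation from the gene means over all arrays. Alternatives covered the arrays and terms in the model, slide, signal, filter, variance model, array weights, probe averaging and each array left out in turn.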

Additional observations from a re-analysis of the deposited data

Results flagged for a closer look

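Among 176 sets of 4 values examined (F1 or LW at TN), 9 held 1 pig far from the other 3 by Dixon's test, and chance flags about 1 in 20. F1 replicate 3 was the highest for TBC1D20 (11.47), for HSD17B4 (14.15, the other F1 pigs reaching 13.64) and for RILPL1 (8.37). F1 replicate 2 was highest for SIRT5 (7.93) and lowest for AKR1E2, an aldo-keto reductase, at 7.40 against 9.63 to 9.86 in the other F1 pigs. F1 replicate 4 was highest for PARVB (6.55) and for MGST1, a microsomal glutathione transferase (16.95). LW replicate 4 was lowest for CPT2 (8.93) and for RDH16 (10.64, against 11.88 to 11.93).

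The difference between F1 and LW itself differed between temperatures for A_72_P123631, by −1.08 on the log2 scale (limma, adjusted p = 0.0056), with all 4 LW pigs at TN above every other pig.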

How the results depend on the processing

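The 98 probes of the main analysis kept their direction in every alternative in which they were measured, including the 26 fits that each left out 1 array, but the count past the threshold did not hold. It was 19 with only the 8 TN arrays of F1 and LW, 1 with slide as a fixed block, 1888 in the additive model of breed and temperature over both temperatures, 46 with no filter on dim probes, 1057 with array weights and 18 of the 10124 genes when all probes of a gene were averaged. With slide as a random block 83 probes passed. Leaving out 1 array gave from 2 (without LW replicate 1 at TN) to 494 (without Creole replicate 5 under HS), and 2 of the 98 probes were kept at the lowest. Of the 27 named genes past the threshold, all 27 lost the call with slide as a fixed block and 26 with only the 8 arrays. Calls higher and lower in F1 numbered 61 and 37 (62.2% higher), against 498 and 559 under array weights (47.1%) and 7 and 12 with only the 8 arrays (36.8%). Of 53 named probes that did not pass, 15 moved by over 1.5 times when 1 array was left out. Of 33 that passed, some of them with no symbol, none did. Passing needs a difference that is large beside its spread, so this contrast follows from the selection and is no measure of stability.

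Under HS the 5 probes became 0 with slide as a fixed block and with the scaled processed signal, 9 with slide as a random block, 2 with normexp, no filter, no intensity trend and robust eBayes, 1 with the series matrix, 10 with the filter on all arrays, 15 with array weights, and 3 with averaged probes and with the red blood cell score. Leaving out 1 array gave 0 to 174. The count for the difference between temperatures was 0 with slide as a fixed block and with averaged probes, and 1 to 4 when 1 array was left out.

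Signs turned only for genes that did not pass. FASN was at 0.14 in the additive model, 0.37 with averaged probes, 0.0136 with the red blood cell score and 5.489e-05 in the series matrix, and from −0.0314 to 0.0297 when 1 array was left out. SOD1 was at 0.11 in the additive model, 0.00491 with array weights, 0.00383 with normexp and 0.0151 with the scaled processed signal, and from −0.0564 to 0.0396 when 1 array was left out. That range was −0.297 to 0.0317 for SOD2 and −0.0317 to 0.303 for ELOVL6. LPL was at 0.127 and SRXN1 at 0.0340 in the additive model, and LCK at 0.0389 with averaged probes. The medians of the adipocyte, adipogenic factor, lipolysis, thermogenesis and steroid lists, from −0.02 to 0.01, changed sign with 2 to 6 alternatives. Another 12 of the 42 medians changed sign with 1 alternative, among them fatty acid synthesis (−0.01 with slide as a fixed block) and, in the additive model, fatty acid uptake (0.0016), adipokines (−0.00092), cell cycle (−0.12) and keratinocyte markers (0.01). When 1 array was left out, 11 of the 42 medians changed sign and 29 others moved by over 1.5 times. The causes were not tested. No paired analysis was possible because the labels give no replicate number, litter or pen by which to pair F1 with LW pigs, and slide was the 1 grouping that could be used as a block.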
